A study of Mus musculus with 2 samples.

Results

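Cytosolic ribosomal protein genes encode the proteins of the ribosome outside mitochondria. They were taken here as the genes whose symbol is Rpl or Rps and a number, with Rplp0, Rplp1, Rplp2 and Rpsa, and which at least 1 probe set names alone. The rule found 46 genes, 24 of the large and 22 of the small subunit, among 18193 genes named on the array, and they were read by 100 probe sets. Rplp1 was not among them, because every probe set listing it listed further symbols.

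Expression was measured on Affymetrix Mouse Genome arrays in the liver of wild-type C57Bl6 mouse embryos at E12.5, when the organ is also the main site of blood formation. The mesothelial group held cells sorted by FACS for podoplanin (Pdpn), which mesothelium, the sheet of flat cells covering the liver, carries on its surface. The liver group held liver cells of the same stage, and it is not stated whether Pdpn+ cells were taken out of it, nor how many embryos gave either sample. Each group had 1 array, made from 20 ng of total RNA after amplification, so no test was possible and the values are those of these 2 arrays alone.

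Each ribosome carries 1 copy of most of these proteins on its ribosomal RNA. The large subunit joins amino acids and the small subunit reads the messenger RNA. Many vertebrate ribosomal protein messages begin with a C followed by a run of pyrimidines, the terminal oligopyrimidine or TOP motif, through which mTOR signalling controls their translation. Mutations in several of the genes cause Diamond-Blackfan anaemia, a failure of red cell production, so that the family is also known for its part in the erythroid cells that fill the fetal liver.

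The TOP motif could be looked for in RefSeq's annotated starts (assembly GRCm38.p6; the array files name no build), which were found for 40 of the 46 genes. A start on C with at least 4 pyrimidines after it was found in 8 of the 40 genes, 20%, against 3.01% of the 27025 genes in the table. These 8 starts are shown because they carry the family's signature, each as 15 bases before and 15 from the start onwards, with the pyrimidine run from the start in capitals.
Rps6 (chr4:86857353-86857382, minus strand): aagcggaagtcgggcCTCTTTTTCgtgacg
Rps10 (chr17:27635230-27635259, minus strand): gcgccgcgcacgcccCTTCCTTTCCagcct
Rps18 (chr17:33955651-33955680, minus strand): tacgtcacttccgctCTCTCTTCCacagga
Rps27 (chr3:90213634-90213663, minus strand): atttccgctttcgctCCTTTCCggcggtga
Rpl14 (chr9:120571502-120571531, plus strand): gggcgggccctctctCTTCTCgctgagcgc
Rpl35 (chr2:39005117-39005146, minus strand): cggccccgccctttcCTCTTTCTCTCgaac
Rpl38 (chr11:114668565-114668594, plus strand): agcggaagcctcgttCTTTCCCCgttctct
Rplp2 (chr7:141447636-141447665, plus strand): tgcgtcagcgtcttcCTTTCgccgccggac
The windows of 3 paralogues, genes that arose as second copies of a ribosomal protein gene, are shown as examples without such a run. Most of the 40 genes lack it as well, so its absence does not set paralogues apart.
Rps27l (chr9:66946071-66946100, plus strand): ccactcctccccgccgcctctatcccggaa
Rpl39l (chr16:10170213-10170242, plus strand): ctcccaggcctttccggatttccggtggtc
Rpl3l (chr17:24727811-24727840, plus strand): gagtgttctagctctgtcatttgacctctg
A gene with several annotated starts was counted where any of them matched, and 1 is shown. An annotated start a few bases away from the one cells use would hide a run, so 8 is a count of these annotated starts. Over 300 bases, from 250 before the start to 50 after it, the letters CCGGAAG, the core bound by ETS factors, were found on either strand in 20 of the 40 genes, 50%, against 9.93% of all genes in the table and 15.03% of those also on the array. The letters AAGATGG, the core bound by YY1, were found on either strand in 7 of the 40, 17.5%, against 7.28%. The 2 cores can overlap, since one ends and the other begins with AAG. TATAAA was found on the gene's strand in the 50 bases before the start in 0 of the 40, against 3.15% of all genes.

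Ribosomal protein genes read at similar intensities on both arrays. Their median intensity was 11070 on the mesothelial array and 10015 on the liver array. The median difference, always given as mesothelial minus liver on the log2 scale, was 0.17, or 1.12-fold, with quartiles of 0.05 and 0.39. The median over all 18193 genes was 0.66, or 1.58-fold, so the ribosomal protein genes lay 0.49 below it, and 40 of the 46 had a smaller difference than the median gene (30 of 46 after quantile normalization). As deposited, 36 read higher in mesothelial cells and 10 in liver cells, but this count rests on the scaling. It was 6 and 40 after centring each array on its median, 16 and 29 (with 1 equal) after quantile normalization, 11 and 35 after centring on reference genes, and 35 and 11 after centring on the hybridisation controls. Signs of single genes below are those of the deposited values, and only 6 of the 36 read higher in mesothelial cells under every one of these scalings. They were Rpl12, Rpl37, Rpl39, Rpl3l, Rps25 and Rps6, none of them among the bright genes described below. Rpl3l was no brighter than the bacterial controls on either array. After median centring even Rps15 and Rps26 turned, to -0.11 and -0.13.

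Of the 46 genes, 43 were above an intensity floor, meaning that the higher value reached the median of all probe sets on its array, 65.8 in mesothelial and 42.3 in liver cells. Of these 43, 3 read 2-fold or more higher on the mesothelial array, 6.98%, against 45.4% of all genes above the floor. None of the 43 did so on the liver array, where the share over all genes was 3.83%. After centring each array on its median the numbers were 1 and 0, against 23.9% and 9.25% of all genes, and after quantile normalization 1 and 1 (Rps4l), against 20.7% and 11.1%. At 1.5-fold 5 genes passed on the mesothelial side, against 63.4% of all genes, and at 4-fold 1 passed, against 15.9%.

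**Figure D1:**
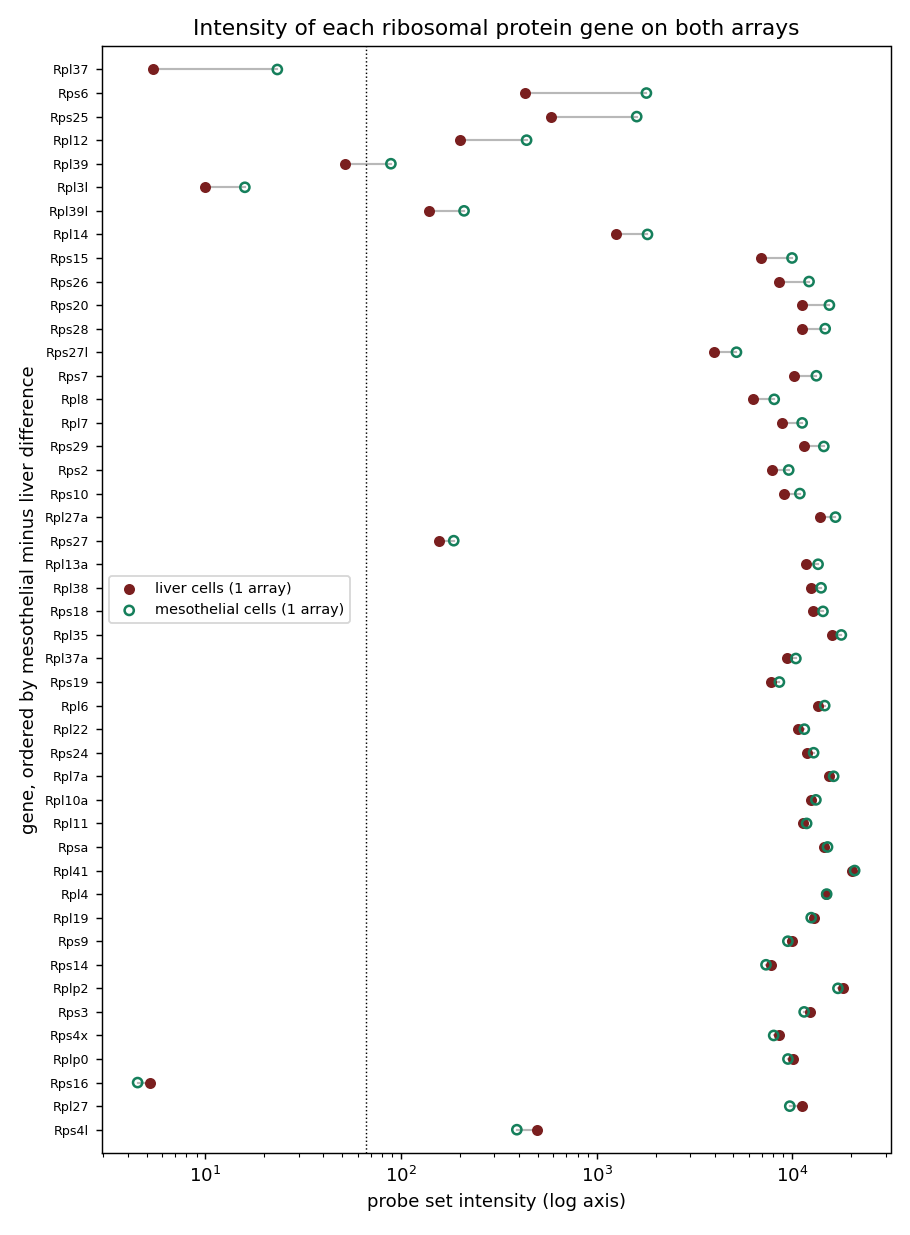
Intensity (log axis) of the 46 ribosomal protein genes in mesothelial cells (open green circles) and liver cells (filled dark red circles), 1 array each, ordered by difference, with the mesothelial floor of 65.8 as a dotted line. The pairs of most genes lie close together at the bright end, and Rps6, Rps25 and Rpl12, whose circles lie furthest apart above the floor, are among the dimmer ones.

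The arrays split the family by brightness. In a split chosen after the values were seen, 35 of the 46 genes had a mean log2 intensity of at least 12 (an intensity of 4096) and 11 did not. The 35 bright genes differed by -0.21 to 0.52, with a median of 0.14 and an SD of 0.19 between genes, and none by 2-fold. All 35 lay below the median of all genes. The 312 other genes past this threshold had a median of 0.53 and an SD of 0.53. Of these, 44 passed 2-fold on the mesothelial side and 2 on the liver side. They were matched on the threshold alone, whereas 34 of the 46 members were among the brightest 1% of all genes. The spread of other genes as bright as those was not measured. The difference over all genes itself varied with brightness, with a median of 1.03 for mean log2 intensities from 6 to 8 and 0.47 from 12 to 15. Against the 234 genes at least as bright as the family's lower quartile, whose median was 0.38, the family lay 0.21 lower instead of 0.49. After quantile normalization it lay 0.16 below the median of all genes.

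**Figure D2:**
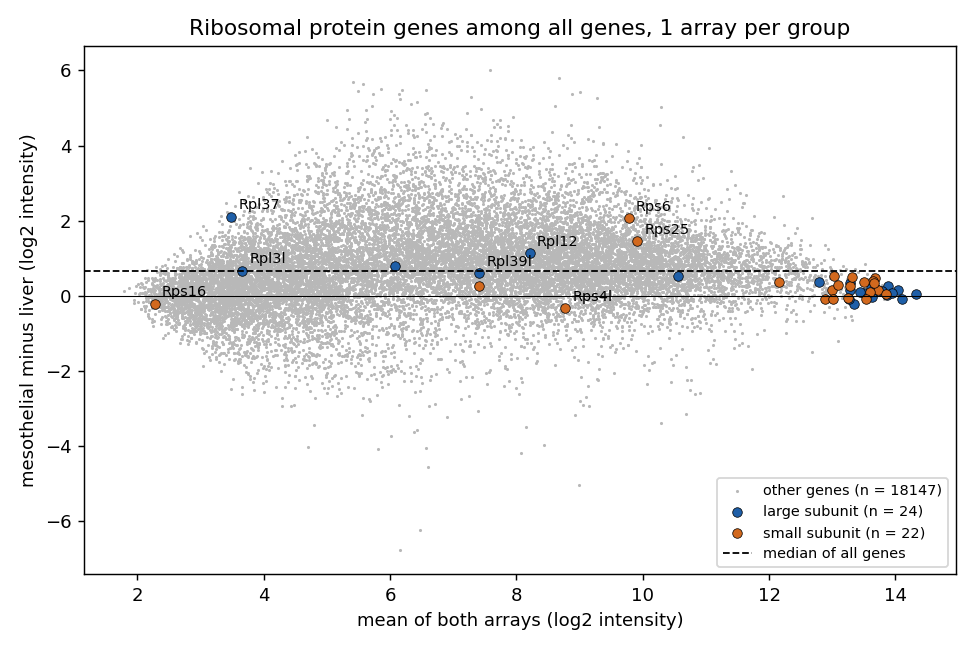
Difference between arrays (log2 intensity in mesothelial minus liver cells) against mean log2 intensity, for large subunit genes (blue, n = 24), small subunit genes (orange, n = 22) and the other genes (grey, n = 18147). The bright ribosomal protein genes form a narrow band between -0.21 and 0.52, under the dashed median of all genes at 0.66.

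The stalk proteins, which draw elongation factors to the large subunit, read slightly higher in liver cells as deposited. Rplp0, the stalk's base, read 9491 in mesothelial and 10123 in liver cells, and Rplp2 read 17096 and 18182. Both differed by -0.09, from 1 probe set each for the gene's value. Rpsa, a small subunit protein also described as a laminin receptor, read 15124 and 14530, a difference of 0.06.

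Among the other bright large subunit genes, 15 of 16 lay between -0.04 and 0.36. Rpl4, whose protein lines the tunnel through which the new chain leaves, read 14973 and 14905, the closest pair of all at 0.01. Rpl41, which encodes the smallest of these proteins, had the highest single-symbol intensities of the family, 20812 and 20202, and differed by 0.04. Rpl11, which binds Mdm2 when ribosome assembly fails, read 11828 and 11268, a difference of 0.07. Rpl19, Rpl10a, Rpl7a, Rpl22, Rpl6, Rpl37a, Rpl35, Rpl38, Rpl13a and Rpl27a lay between -0.04 and 0.26. Rpl38, which was found through skeletal patterning defects in mice, read 14020 and 12423, a difference of 0.17. The upper end was formed by Rpl7 (11220 and 8873) and Rpl8 (8076 and 6275), with differences of 0.34 and 0.36. The exception was Rpl27, at 9699 and 11217 the bright gene furthest to the liver side with a difference of -0.21, and its 3 probe sets ranged from -0.35 to 0.05.

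Bright small subunit genes, as read by single-symbol probe sets, reached further to the mesothelial side. Rps15, which reaches into the decoding centre, read 9957 and 6930, and its 2 probe sets gave 0.39 and 0.52. Rps26, which lies where messenger RNA leaves the subunit, read 12169 and 8540, a difference of 0.51. Rps20 read 15462 and 11169, a difference of 0.47, with its 4 probe sets between 0.17 and 0.78. Rps28, Rps7 and Rps29 followed at 0.39, 0.38 and 0.33, and Rps28 read 14711 and 11201. The 6 bright genes with the highest differences, with the paralogue Rps27l among them, were all of the small subunit, but after quantile normalization Rpl41 was among them (0.19) and Rps27l was not. At the other end stood Rps3, at the channel where messenger RNA enters (11486 and 12233, -0.09), Rps4x (8026 and 8552, -0.09), Rps14 (7332 and 7735, -0.08) and Rps9 (9482 and 9906, -0.06). These are the brightest probe sets. Another bright one of Rps9 read 5709 and 4000, a difference of 0.51. A dimmer one of Rps3 read 1586 and 1077, a difference of 0.56, and the other one of Rps14 differed by 0.01. Rps24, Rps19, Rps18, Rps10 and Rps2 lay in between, from 0.11 to 0.28. The median was 0.27 for the 17 bright small subunit genes and 0.10 for the 18 large ones, 0.17 apart, with 10 and 7 genes above the median of all bright members. That gap narrowed to 0.05 after quantile normalization, and no test of it was possible. Over all members it was 0.11, and 0.02 with the several-symbol probe sets described further on, where Rpl29 had the highest bright difference (0.53) and Rpl34, Rpl15 and Rpl13 (0.45, 0.44 and 0.41) were among the 8 highest.

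Precision could be judged only from probe sets of one gene, which share both arrays and so hold no variation between embryos, sorts or amplifications. Over the 17 genes with several bright probe sets the pooled SD of the difference was 0.16, about as large as the spread of 0.19 between bright genes. Neighbours in the order above therefore do not differ beyond the spread between probe sets. Over all 23 genes with several probe sets it was 0.59. The dim probe sets made this larger figure: of 35 probe sets with a mean log2 intensity under 12, 9 passed 2-fold on the mesothelial side and 0 on the liver side, with low values taken at the control level, against 0 of the 65 bright ones. Of the family's 92 probe sets above the floor, 8 passed on the mesothelial side, 8.7%, against 41.2% of all single-symbol probe sets above the floor. Rps18 showed both kinds. Its brightest probe set read 14337 and 12791, a difference of 0.16, whereas the widest of its 6 differed by 2.56 at intensities of 108.3 and 18.4.

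**Figure D3:**
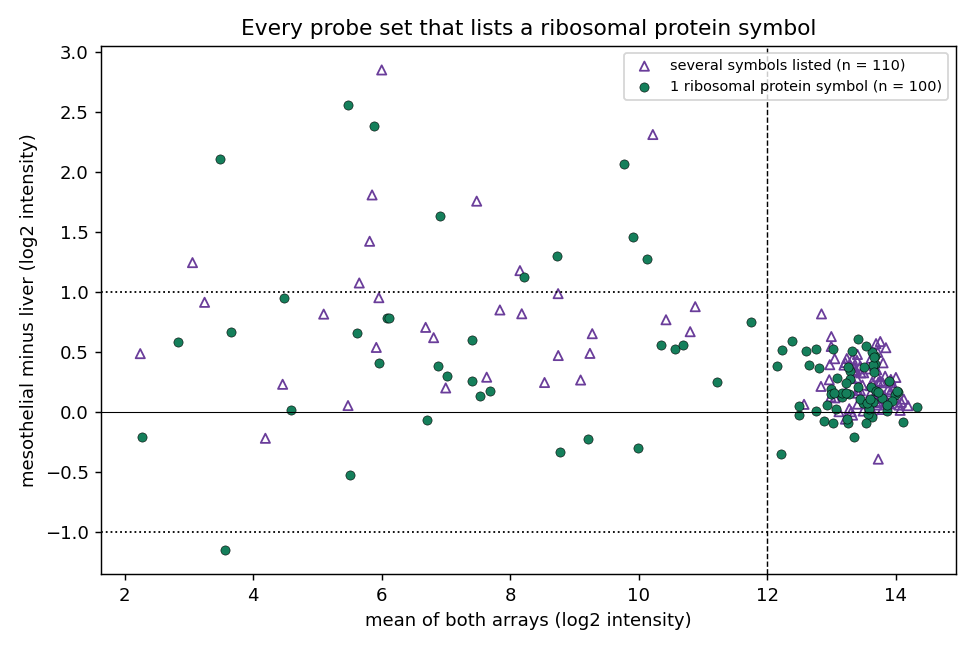
Difference between arrays (log2, mesothelial minus liver) against mean log2 intensity for the 100 single-symbol probe sets (green dots) and the 110 that list a ribosomal protein gene among several symbols (purple triangles). Dotted lines mark 2-fold and the dashed vertical line a mean log2 intensity of 12, to the right of which no probe set of either kind passes 2-fold.

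The genes past 2-fold were all read dimly. Rps6, whose protein is the best-known target of the S6 kinases downstream of mTOR, read 1794 against 428.6, 4.19-fold higher on the mesothelial array. Its other single-symbol probe set read 7.9 and 17.6, with the mesothelial value at the control level, and the median of both differences was 0.46. Rps25, used by some viral messages to enter the ribosome, read 1601 and 582.6, 2.75-fold higher. Rpl12, near the base of the stalk, read 438.0 and 200.5, 2.18-fold higher. After median centring or quantile normalization Rps25 and Rpl12 were under 2-fold and Rps6 was not. Rpl37 lay under the floor at 23.3 and 5.4, where the liver value was no brighter than the bacterial control probe sets (up to 10.5), for which no RNA was present, and so was at least 2.22-fold higher.

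The brightest of the probe sets that list these same genes beside other symbols, mostly pseudogenes, gave differences within the range of the bright members. Such probe sets cannot be assigned to the gene or to its copies, and they were looked at after the single-symbol values had been seen. The brightest one listing Rps6 read 19019 and 18361, a difference of 0.05. For Rps25 it read 15685 and 14995, a difference of 0.06, and for Rpl12 13935 and 13126, a difference of 0.09. For Rpl37 it read 11684 and 9221, a difference of 0.34, but another bright one read 9749 and 5534, a difference of 0.82, the highest of all bright several-symbol probe sets. The same contrast was seen for Rps16, which read 4.5 and 5.2 on its single-symbol probe set, within the control range on both arrays, but 12028 and 9478 on a several-symbol one. Rpl39 read 88.7 and 51.6 alone and 11461 and 8753 with others, Rps27 185.8 and 155.9 alone and 16176 and 13166 with others, and Rpl14 1817 and 1262 alone and 14872 and 12134 with others. All 8 dim members other than paralogues therefore had a bright several-symbol probe set, and the brightest one of each gave a difference of at most 0.39.

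In all, 110 probe sets list a ribosomal protein gene among several symbols, and 28 of the genes are listed only there, such as Rpl3, Rpl5, Rpl15, Rplp1, Rps12, Rps13 and Rps23. Of the 110, 79 were bright and differed by -0.40 to 0.82, with a median of 0.22 and none at 2-fold. Of the 31 dim ones, 3 were at the control level on both arrays. The other 28 had a median of 0.74, and 7 passed 2-fold on the mesothelial side. Of the 104 several-symbol probe sets above the floor these 7 were 6.73%, against 41.2% of all single-symbol probe sets above the floor. Several-symbol probe sets were then added where all the further symbols were pseudogenes, retrotransposed copies or predicted genes, which left out 4 of 74 symbols (Rpl32, Rpl32l, Rpl35a and Rpl36a). The brightest probe set of either kind gave values for 70 symbols, 67 of them bright. Their median was 0.16. Without Rpl3l, at the control level on both arrays, they ranged from -0.33 to 0.60 with an SD of 0.20, and 0 of the 70 were past 2-fold, against 45.3% of all genes read in this way on the mesothelial side. As deposited 60 read higher in mesothelial and 10 in liver cells, and 69 lay below the median of all genes.

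The 3 symbols that were still dim among those 70 were paralogues. Rpl3l, the form of skeletal and heart muscle, read 15.9 and 10, within the control range on both arrays, so no fold can be given. Rpl39l, known from the testis, read 209.8 and 138.3, a difference of 0.60. Rps4l, a second copy of Rps4x, read 390.5 and 492.3, the member above the floor furthest to the liver side at -0.33, and -1.16 after quantile normalization. Its partner Rps4x differed by -0.09 on its brighter probe set and 0.66 on the other. Rps27l, a p53 target, was the paralogue read brightly, at 5179 and 3984, a difference of 0.38 with an SD of 0.16 between 3 probe sets, while the single-symbol probe set of its partner Rps27 differed by 0.25.

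Of 18 ribosomal protein genes listed as mutated in Diamond-Blackfan anaemia, 11 were measured by single-symbol probe sets. They differed by -0.21 (Rpl27) to 0.51 (Rps26), with a median of 0.25, and none by 2-fold. Rps19, the first of them to be found in patients, read 8582 and 7764, a difference of 0.14. The red cell genes themselves differed far more: Epb42, of the red cell membrane, read 62.7 and 1146, and the embryonic globin gene Hbb-bh1 387.9 and 4066. Of 5 erythroid markers measured, 4 passed 2-fold on the liver side, against 3.83% of all genes above the floor. The summed intensity of the 5 was 4731 on the mesothelial and 16949 on the liver array. Whether the share of erythroid cells moved ribosomal protein values was not tested, and in bulk samples fewer cells of a type and less RNA per cell cannot be told apart.

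Genes whose start carries the TOP run shown above overlapped with the others in their differences. The 5 bright ones among the 8 differed by -0.09 (Rplp2) to 0.27 (Rps10), with a median of 0.16. The 25 bright genes with another annotated start differed by -0.21 to 0.52, with a median of 0.11.

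Other translation genes were described in lists chosen by function, whose counts past 2-fold are to be read against 45.4% of all genes above the floor on the mesothelial and 3.83% on the liver side. All 5 ribosome-associated genes measured differed by -0.06 to 0.18, among them Fau, which encodes Rps30 as a fusion (8918 and 9321, -0.06), and the nascent chain factors Naca and Btf3 (0.05 each). Of 11 elongation and termination factor genes, 0 passed 2-fold on the mesothelial side and 1 on the liver side, with a median of 0.15. Eef1a1, which brings aminoacyl-tRNA to the ribosome, read 15201 and 15024, while Eef2, the translocase, read 5986 and 3098, a difference of 0.95. The exception was Eef1a2, the form of muscle and neurons, at 22.6 and 45.3. It was 2.00-fold higher on the liver array, where it lay just over the floor of 42.3, and under the floor of 65.8 on the mesothelial array.

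Of 31 initiation factor genes, 3 passed 2-fold on the mesothelial and 0 on the liver side, with a median of 0.35. These were Eif3c (7006 and 2762, 1.34), Eif6, which keeps free large subunits apart from small ones (1.22), and Eif4g3 (1.09), and the lowest were Eif2b3 (-0.51) and Eif3d (-0.23). Of 18 aminoacyl-tRNA synthetase genes, 3 passed 2-fold on the mesothelial and 0 on the liver side, with a median of 0.37. Eprs, Hars and Qars led at 1.17, 1.11 and 1.11, and Cars and Sars were lowest at -0.15 and -0.03.

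As deposited, the genes that make ribosomes lay closer to the median of all genes than the genes of the ribosome itself. After quantile normalization the genes that make ribosomes lay further from it. They were also dimmer, with a median mean log2 intensity of 9.93 for ribosome biogenesis and 8.72 for RNA polymerase I. The median difference of all genes was 0.88 at mean log2 intensities from 8 to 10 and 0.47 from 12 to 15. These distances are therefore not matched on brightness. Of 59 ribosome biogenesis genes, 4 passed 2-fold on the mesothelial and 0 on the liver side, with a median of 0.56, or -0.19 after quantile normalization, where all genes were at 0.075 and cytosolic ribosomal proteins at -0.083. The highest were the assembly factors Nle1 (1.72), Wdr75 (1.43) and Wdr36 (1.37), and the lowest Rpf1 (-0.79) and Rcl1 (-0.75). Of 14 genes of RNA polymerase I and its factors, which transcribe ribosomal RNA, 1 passed 2-fold on the mesothelial and 0 on the liver side, with a median of 0.61. It was -0.21 after quantile normalization, and 0.24 with the median over probe sets, where the cytosolic ribosomal proteins were at 0.26. Taf1a was highest at 1.60, and Polr1b, a core subunit, and Ubtf were lowest at -0.17 and -0.10.

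Regulators of TOP messages and the mTOR pathway had the highest median of these lists as deposited, 0.98. It was 0.43 with the median over probe sets, below ribosome biogenesis (0.44), and 0.40 with each probe set counted, below mitochondrial ribosomal proteins (0.43). Of 15 measured, 7 passed 2-fold on the mesothelial and 0 on the liver side, 46.7%, a share close to the 45.4% of all genes. Rptor, the mTORC1 subunit that binds substrates, read 406.1 and 109.7, a difference of 1.89, and the S6 kinase family gene Rps6ka3 read 1319 and 415.8, a difference of 1.67. Mycn (1.78), Eif4ebp1 (1.26), Tsc2 (1.22) and Tsc1 (0.98) also read higher on the mesothelial array. Larp1, which binds the TOP motif and holds such messages back, went the other way at 2312 and 3091, a difference of -0.42. Myc was lowest at -0.48. The list was also dim, with a median mean log2 intensity of 8.66. It mixes genes that promote and restrain the pathway, and pathway activity was not tested. Mitochondrial ribosomal protein genes, which serve a separate ribosome, had a median of 0.25. Of the 76, 10 passed 2-fold on the mesothelial and 0 on the liver side. Their range was wider than that of the bright cytosolic genes, but only 2 of the 76 had a mean log2 intensity of at least 12. The 11 cytosolic genes under 12 ranged from -0.33 to 2.11. Mrpl34, Mrps24 and Mrpl39 led at 1.71, 1.62 and 1.57, and Mrps11 and Mrpl14 were lowest at -0.82 and -0.70. All these translation genes other than the cytosolic ribosomal proteins had a median of 0.38, which became -0.26 after median centring, -0.30 after quantile normalization and -0.05 after centring on reference genes.

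**Figure D4:**
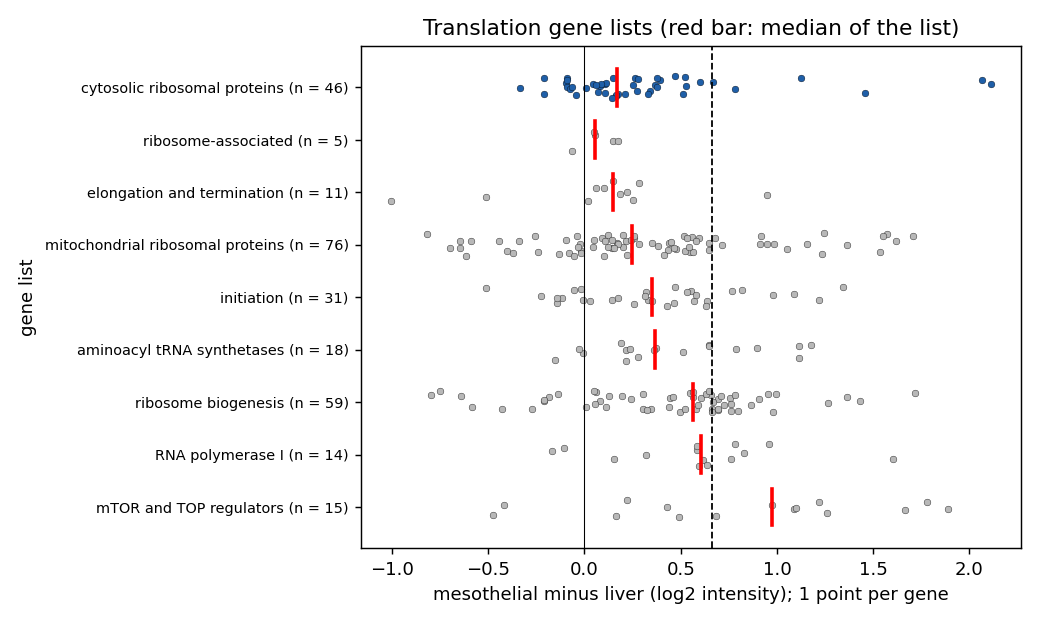
Difference between arrays (log2, mesothelial minus liver) for each gene of the cytosolic ribosomal proteins and 8 other translation lists, with the median of each list as a red bar and the median of all genes, 0.66, as a dashed line. Ribosome-associated, elongation and cytosolic ribosomal protein genes have medians of 0.05 to 0.17, and regulators of TOP messages and mTOR one of 0.98. The lists differ in brightness, and the dashed line is not matched to it.

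The arrays differed in more than the sorted cells. Pdpn, the gene of the sort, read 3877 and 100, which checks the labels, and the mesothelial genes Wt1 (1994 and 102.0) and Upk3b (3053 and 54.4) followed it. But the hepatocyte genes Alb (15683 and 12832) and Afp (13191 and 10376) read no lower in the sorted cells as deposited. Their differences of 0.29 and 0.35 were smaller than the shift of 0.64 made by median centring, so their signs rest on the scaling. All 6 hepatoblast markers read higher in the sorted cells as deposited, with a median difference of 0.67, close to the 0.66 of all genes. Hnf4a (2932 and 965.4) and Dlk1 (9145 and 3587) passed 2-fold. All 8 mesothelial markers were measured, with summed intensities of 9875 and 402.0. All 4 megakaryocyte, 4 macrophage, 4 stellate and 4 muscle markers passed 2-fold on the mesothelial side, against 45.4% of all genes above the floor. Summed intensities of the megakaryocyte markers were 13777 and 4178. Of 4 endothelial markers 2 passed there, and Pecam1 differed by -0.28. Of 3 neutrophil markers above the floor, 0 passed on the mesothelial side. S100a9 (-5.03) and Camp (-4.56) passed on the liver side, where the share over all genes was 3.83%. The other neutrophil markers went the other way. Mpo read 2552 and 1477, a difference of 0.79, and Elane, under the floor, read 48.6 and 21.5. Markers of dividing cells had a median difference of -0.12. Control probe sets for 18S ribosomal RNA read lower in mesothelial cells, at 1448 and 4202 for the middle of the molecule, 96.4 and 170.8 for its 3′ part and 85.7 and 340.2 for its 5′ part. The ratio of 3′ to 5′ probe sets, which grows as RNA is degraded or copied short, was 2.30 and 1.49 for Actb, 2.15 and 1.95 for Gapdh and 27.3 and 7.23 for Tfrc in mesothelial and liver cells. The part of these differences in the ribosomal protein values was not tested.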

How the data were processed

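The authors deposited 1 intensity per probe set and array, which from its range is linear and not a log. Per the submitters' processing notes RMA and Partek were used, with no version or role given. The array files name no genome build. Log2 was taken first, with no pseudocount. Symbols came from the platform annotation: of 45101, 64 were controls, 34945 other ones had 1 symbol, 932 several and 9160 none. A gene took the value of its single-symbol probe set with the highest mean log2 intensity, and the floor was the 50th percentile of each array. A gene counted as 2-fold different where its log2 values lay 1 or more apart. Where the lower value was within the highest bacterial control (16.2 in mesothelial, 10.5 in liver cells), its fold was taken against that level. With 1 array per group no test was run, and the number of arrays limits the precision. Amplification from 20 ng can alter ratios between transcripts.

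A description field speaks of embryos far younger than E12.5, and the age field was followed. The members and lists were chosen with earlier results of these data known. Genes named were those past 2-fold, the 8 highest and 8 lowest members, the stalk genes, Rpsa, paralogues with partners, and in each other list the 3 highest and 2 lowest, with some more named after their values were seen. Not every gene under this rule is printed. The split at a mean log2 intensity of 12 and the several-symbol probe sets were chosen after seeing the data. Promoter windows came from RefSeq. The scripts (Python 3.11.15, pandas 2.3.3, numpy 2.4.6) were tested on simulated data.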

Additional observations from a re-analysis of the deposited data

How the results depend on the processing

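With 1 array per group no replicate could be left out, and no paired analysis was possible because no group has a second sample. The median of the ribosomal protein genes, 0.17 as deposited, was -0.47 after centring on the array median, -0.083 after quantile normalization and -0.26 after centring on reference genes, where the other translation genes (0.38) were at -0.26, -0.30 and -0.052. Relative to all genes the family lay at -0.49 as deposited. Centring an array shifts both medians alike, and fold thresholds and floors do not enter this value, so these settings could not change it. In the settings that could, the family stayed lower, from -0.52 for the bright members to -0.16 after quantile normalization. The count of members past 2-fold on the mesothelial side, 3 in the main setting, was 8 of 92 above the floor with each probe set counted, 1 after median centring, 1 after quantile normalization, 5 at 1.5-fold, 1 at 4-fold, 0 with several-symbol probe sets and 0 among bright members. The share over all single-symbol probe sets above the floor was 41.2% in the first of these, and the shares over all genes above the floor were 23.9%, 20.7%, 63.4%, 15.9% and 45.3% in the next 5. The count for liver cells, 0, became 1 (Rps4l) after quantile normalization, where it was 11.1% over all genes. Members below the median of all genes numbered 81 of 100 probe sets and 69 of 70 symbols with several-symbol probe sets, against 40 of 46, and 30 of 46 after quantile normalization. Among single genes, Rps24 differed by 1.63 without cross-hybridising probe sets, against 0.11. The 1.63 came from a dim probe set, at 211.6 and 68.3. The bright probe sets of Rps24, all left out in this setting, gave 0.07 to 0.21.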
